A study of Rattus norvegicus with 8 samples.

Results

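The genes described here are the Wnt ligands, their Frizzled receptors and Lrp co-receptors, the R-spondins with their Lgr receptors, the secreted Wnt inhibitors, and the feedback genes Axin2 and Rnf43. The rule selects them by gene symbol and uses no measured value, and 50 of the 32623 genes in the deposited table carry such a symbol. The set itself was proposed with earlier results of these data known, so its shares of called genes are descriptions and not independent evidence. Znrf3 was on the list by symbol and was not analysed here. The libraries, made from lung tissue of rats by oligo(dT) selection and sequenced, form 2 groups of 4. The MCT group came from rats treated with monocrotaline, a plant alkaloid that injures pulmonary vessels and is used to model pulmonary hypertension, and the other group is labelled control. The labels give no strain, sex, age, dose, time after treatment or vehicle, and do not state whether each library stands for its own animal. The p-values therefore measure only the spread between these libraries, which may be technical in part.

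Wnt proteins are secreted lipid-modified ligands that bind a Frizzled receptor and, in the canonical branch, an Lrp5 or Lrp6 co-receptor, which stabilises beta-catenin and lets it drive transcription with the TCF and LEF factors. R-spondins bind Lgr receptors and keep Frizzled proteins at the cell surface by holding back the ubiquitin ligases Znrf3 and Rnf43. Sfrp proteins, Frzb and Wif1 bind Wnt ligands outside the cell, whereas Dkk1, Dkk2 and Dkk4 act on the Lrp co-receptors. In the lung the pathway takes part in branching, alveolar and vascular development and in repair after injury. Axin2 and Rnf43 are negative regulators that are also transcribed in response to canonical signalling.

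Axin2 is the member most often used to read canonical signalling, and its promoter region carries letters of the TCF and LEF core motif, so its upstream sequence is shown here. The bases are the 250 before an annotated Axin2 start, on the gene's strand, at chr10:94398535-94398784 (plus strand, GRCr8, from RefSeq). Capitals mark CTTTGAA, whose first base is at -232 from that start, and CTTTGAT, whose first base is at -132.

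Axin2 upstream: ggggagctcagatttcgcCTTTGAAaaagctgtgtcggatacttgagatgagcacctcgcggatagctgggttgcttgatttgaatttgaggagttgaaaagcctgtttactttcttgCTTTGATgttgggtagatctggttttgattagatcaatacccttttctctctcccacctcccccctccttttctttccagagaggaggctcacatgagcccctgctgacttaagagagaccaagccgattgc

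Each motif was searched on both strands in windows of 300 bases, 250 before and 50 after a start. CTTTGAT was in 3.63% of all 33469 rat promoter windows, CTTTGAA in 5.4% and at least 1 of them in 8.73%. A window was matched by symbol for 34 members, of which Axin2, Fzd7, Dkk1 and Wnt8a held a motif. In Fzd7 a CTTTGAA began at -1 and so spans the start. A match of letters is a description and does not show a binding site. The deposited table uses another build, Rnor_6.0, on which Axin2 (ENSRNOG00000055010) lies on the plus strand of chromosome 10 from 97212432 to 97239642.

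In MCT lungs, 10 of the 20 Frizzled, Lrp, Lgr, R-spondin and feedback genes tested were lower and none was higher. Of all genes tested, 9.45% were lower and 11% higher. This pooling of roles was not planned, and it leaves out the ligands and inhibitors, which hold all 4 members that were higher. The co-receptors Lrp5 and Lrp6, 4 of the 10 Frizzled genes (Fzd4, Fzd5, Fzd7 and Fzd8), Lgr4, Lgr5, Axin2 and Rnf43 fell. Of the secreted inhibitors Sfrp1, Dkk2 and Frzb rose, while Wif1 fell. Among ligands Wnt5b fell and Wnt5a rose. Of the 50 members, 41 passed the filter on low counts (edgeR's filterByExpr) and were tested with edgeR's quasi-likelihood test, and 16 passed an adjusted p of 0.05 (Benjamini-Hochberg, over all genes tested), which is the meaning of called below. Of the 41, 12 were lower (29.3%), against 9.45% of all 16715 genes tested, and 4 were higher (9.76%), against 11% of all genes. The share higher was thus near the background and the share lower was about 3 times it. Without regard to the test, 12 of the 41 had all MCT values below all control values (29.3%, against 11.7% of all genes) and 3 had them above (13.3% of all genes). The median log2 fold change, MCT minus control, was -0.14 over the 41 members and 0.03 over all genes tested. The number lower was 5 without MCT 2, 6 without control 2, and 7 without MCT 3 or control 4. Without MCT 2 the share was 12.2% of the members tested and 5.75% of all genes. It was 14.3% and 6.36% without control 2, 17.1% and 6.47% without MCT 3, and 16.7% and 7.11% without control 4. Fewer genes of any kind were called in these fits, but the share of members fell by more than that of all genes. The size of the excess thus depended on single libraries. The 4 higher members became 2 without MCT 2, MCT 3 or control 4. The share higher without MCT 2 was 4.88% of the members tested and 7.02% of all genes. It was 4.88% and 7.39% without MCT 3, and 4.76% and 8.11% without control 4.

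**Figure D1:**
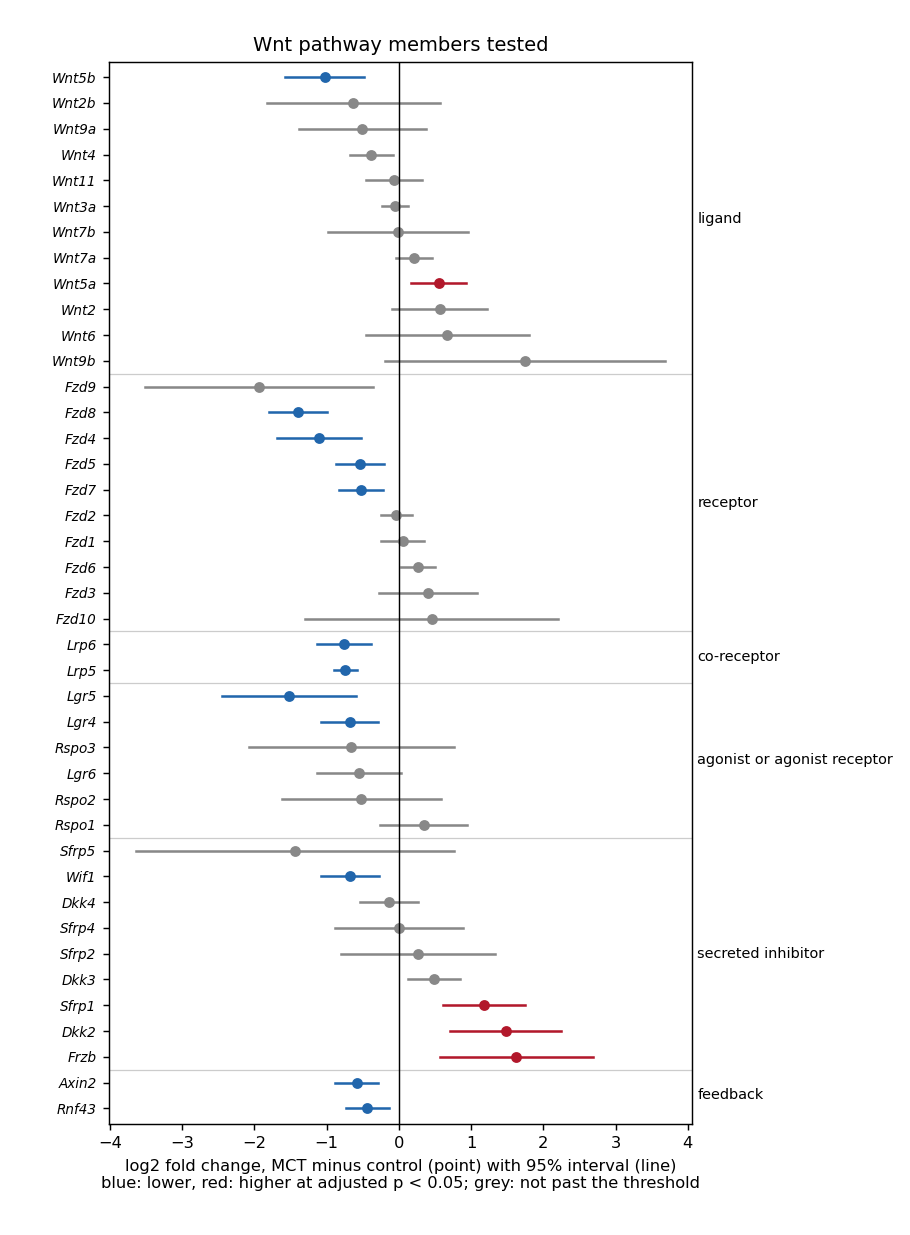
Log2 fold change (x axis, MCT minus control, edgeR) of the 41 members tested, grouped by role, with a 95% interval per gene that is not adjusted for the number of genes. Blue genes were lower and red genes higher at an adjusted p under 0.05, grey genes were not past it. All called receptor, co-receptor, Lgr and feedback genes lie left of 0, and 3 of the 4 called inhibitors lie right of it.

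Depth ranged from 10.8 to 14.8 M read pairs over the controls and from 11.3 to 18.1 M over the MCT libraries. FPKM values below are the authors' own, in fragments per kilobase of transcript scaled to library depth, so they can be compared between genes. Lung markers were present in every library: the alveolar type 2 list summed to 16580 to 31590 FPKM. Marker lists of several cell types moved with the groups. The 5 endothelial markers in the table summed to 467 to 590 FPKM in control and 215 to 267 in MCT, with 2 of 5 lower and none higher. The 4 fibroblast markers summed to 104 to 117 FPKM in control and 203 to 264 in MCT, with 2 higher and none lower. Of 5 alveolar type 2 markers, 3 were lower and 1 higher, with sums of 23300 to 31590 FPKM in control and 16580 to 20870 in MCT. The macrophage list (3 of 4 tested markers higher) summed to 155 to 235 FPKM in control and 361 to 663 in MCT. All 4 mast cell markers were higher, with sums of 5.88 to 12.67 FPKM in control and 179 to 877 in MCT. Adventitial fibroblast markers (2 of 3 higher) summed to 238 to 373 FPKM in control and 399.9 to 555 in MCT. The alveolar type 1 list (1 of 4 lower) summed to 2258 to 2557 FPKM in control and 1851 to 2250 in MCT. No marker of these lists was at 0 in all libraries. In bulk tissue, fewer cells of a type and less RNA per cell cannot be told apart, and the part of these shifts in the Wnt results was not tested. The libraries control 1 and MCT 1 stood apart on the second principal component (15.3% of the variance) at 24.8 and 77.2, against -36.9 to -4.46 for the others. They also had the highest sums of airway club markers in their groups, 22030 and 30740 FPKM against 9166 to 16140 in the others. With both left out, 9 members were lower (21.4% of those tested, against 10.2% of all genes). In the same fit 6 were higher (14.3%, against 10.8% of all genes).

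Among the receptors, Fzd2 and Fzd1 made up most of the Frizzled transcript pool and were not past the threshold, while less abundant Frizzled genes fell. The 10 Frizzled genes summed to 106 to 118 FPKM in the control libraries and 87.0 to 101 in the MCT libraries, and these ranges do not overlap. Fzd2 supplied 33.8% of that sum in control and 39.7% in MCT, and Fzd8 supplied 10.5% and 4.84%. Fzd8, a Frizzled close in sequence to Fzd5, was at 8.54, 9.79, 14.0 and 14.7 FPKM in controls 1 to 4 and at 4.58, 3.90, 4.40 and 4.96 in MCT 1 to 4. Every MCT library lay below every control library, and the MCT values were close together. The log2 fold change was -1.4 (SE 0.18, edgeR adjusted p 0.00131), from 11.8 ± 3.04 to 4.46 ± 0.44 FPKM (SD, n = 4), or 2.64-fold lower. Fzd8 (ENSRNOG00000061031) lies on chromosome 17 from 62262129 to 62265113.

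Fzd4 is the receptor for norrin and for Wnt signals in retinal and other vessels. It was at 15.8, 15.6, 19.4 and 14.0 FPKM in controls 1 to 4 and at 12.2, 5.75, 6.21 and 5.96 in MCT 1 to 4. The groups do not overlap, but MCT 1 stood between the controls and the other MCT libraries. In MCT 1 the endothelial markers summed to 250 FPKM, inside the 215 to 267 of the other MCT libraries. Their relation to the level of Fzd4 was not tested. For Fzd4 the log2 fold change was -1.10 (SE 0.26, edgeR adjusted p 0.0177) and -1.45 without MCT 1. The call was lost without MCT 2 or MCT 3 (adjusted p 0.0531 and 0.0533). Ndp, the norrin gene, was listed at 0 in all libraries.

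Fzd7 was at 8.74, 10, 7.89 and 10.53 FPKM in controls 1 to 4 and at 5.32, 6.20, 6.92 and 7.43 in MCT 1 to 4. Its log2 fold change was -0.53 (SE 0.13, edgeR adjusted p 0.0235). Fzd5, a receptor with epithelial roles, was at 5.82, 6.39, 4.70 and 5.75 FPKM in the controls and at 3.64, 4.18, 4.41 and 3.45 in MCT. Its log2 fold change was -0.54 (SE 0.15, adjusted p 0.0314). The groups of both genes are close but do not overlap. The call of Fzd7 was lost without MCT 2, control 2 or control 4 (adjusted p 0.0631 to 0.0741), and that of Fzd5 without any 1 library except control 3 (0.0502 to 0.0940).

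The other Frizzled genes overlapped between the groups. Fzd2 had 37.6 ± 3.64 FPKM in control and 36.8 ± 4.30 in MCT (SD, n = 4), a log2 fold change of -0.04 with a 95% interval of -0.25 to 0.18. Fzd1 had 20.8 ± 3.51 and 21.6 ± 2.96 FPKM, an interval of -0.24 to 0.35. The sign of the fitted change of Fzd2 and Fzd1 turned when single libraries were left out. Fzd6, which acts in planar polarity, had 8.90 ± 0.98 and 10.7 ± 0.79 FPKM (log2 fold change 0.26, edgeR adjusted p 0.112, and 0.0441 without control 2). Fzd3 was at 0.49 to 1.04 FPKM over the 8 libraries. Fzd9 was at 0.10 to 0.51 FPKM in control and 0.03 to 0.16 in MCT. Its log2 fold change was -1.93, with a 95% interval of -3.51 to -0.35. It was not past the threshold (edgeR adjusted p 0.0842) but was called by DESeq2, and such levels stand for few reads. Fzd10, annotated in the table as a pseudogene, was at 0.01 to 0.27 FPKM.

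**Figure D2:**
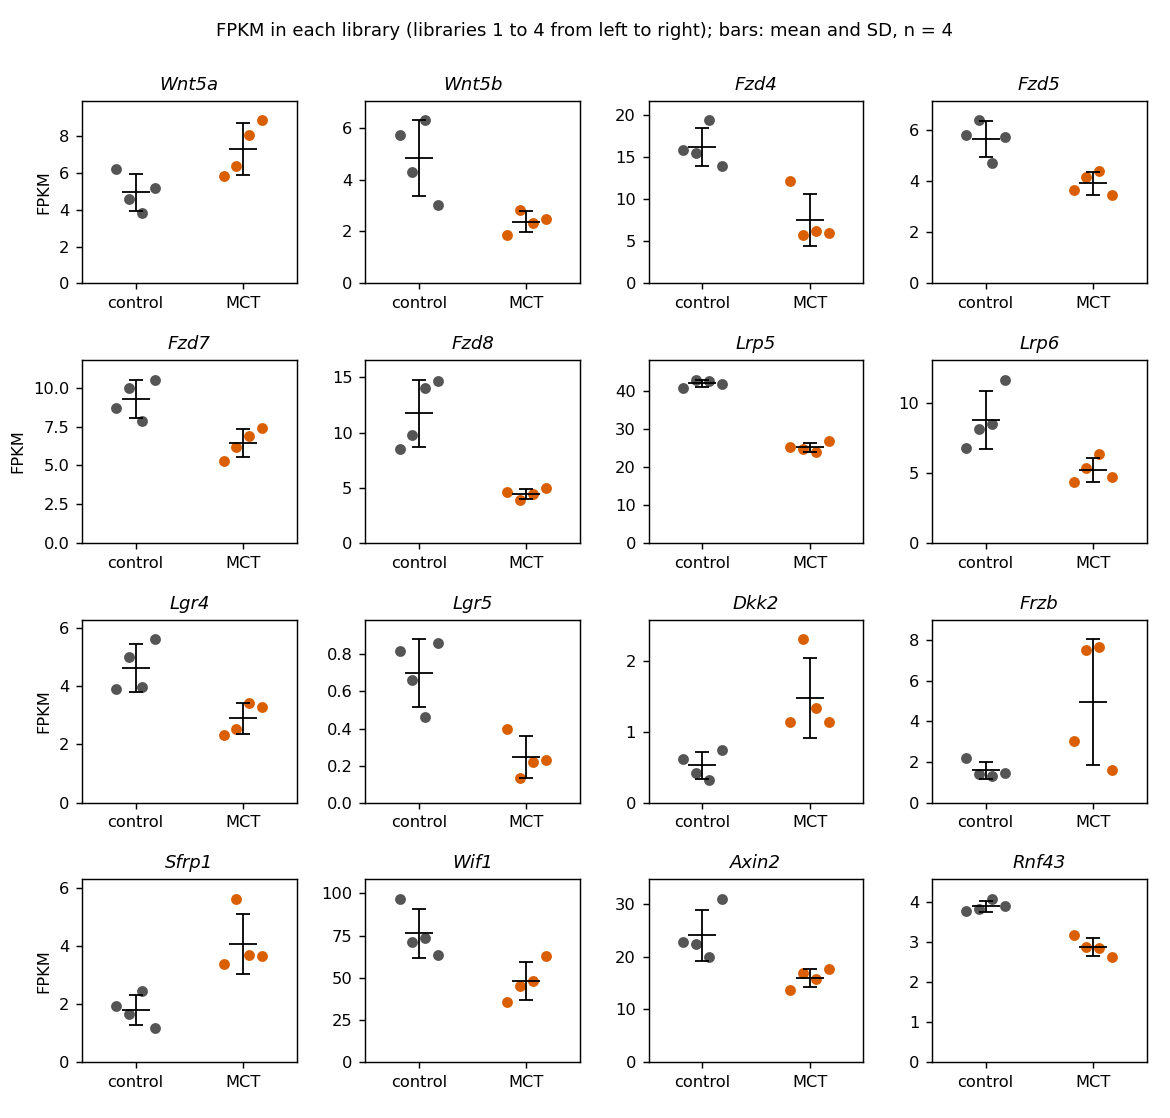
FPKM (y axis, linear from 0) in each library of the 16 called members, controls in grey and MCT in orange, with mean and SD (n = 4). The groups are apart for every gene shown except Wnt5a and Frzb, whose values overlap.

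Both co-receptors fell by a similar amount. Lrp5 was at 40.9, 42.9, 42.5 and 42 FPKM in controls 1 to 4 and at 25.2, 24.8, 24.1 and 26.9 in MCT 1 to 4. Values within each group were tight, and the gap between the groups was many times the spread within them. In edgeR the log2 fold change was -0.74 (SE 0.07, edgeR adjusted p 0.000378), with a 95% interval of -0.90 to -0.58, or 1.67-fold lower in mean FPKM. Lrp5 (ENSRNOG00000015911) lies on the minus strand of chromosome 1 from 218816841 to 218920094. Lrp6, the second canonical co-receptor, was at 6.80, 8.12, 8.5 and 11.7 FPKM in the controls and at 4.38, 5.38, 6.33 and 4.73 in MCT. The control values were more spread than those of Lrp5, and the groups again did not overlap. Its log2 fold change was -0.75 (SE 0.17, adjusted p 0.0128). Lrp5 supplied 82.9% of the summed FPKM of the pair in both groups.

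Among the R-spondin receptors, Lgr4 was at 3.91, 5.02, 3.99 and 5.62 FPKM in controls 1 to 4 and at 2.33, 2.54, 3.43 and 3.29 in MCT 1 to 4. Each MCT library lay below the lowest control. The fitted log2 fold change was -0.68 (SE 0.17, edgeR adjusted p 0.0246). Lgr5, a stem cell marker in several epithelia, was low throughout, at 0.82, 0.66, 0.46 and 0.86 FPKM in the controls and 0.40, 0.13, 0.22 and 0.23 in MCT. Its log2 fold change was -1.52 (SE 0.41, adjusted p 0.0298). Such levels stand for few reads. The call of Lgr4 was lost without MCT 2, control 2 or control 4 (adjusted p 0.0657 to 0.0733), and that of Lgr5 without MCT 2, 3 or 4 or control 1, 2 or 4 (0.0598 to 0.0761). Lgr6 had 1.49 ± 0.45 FPKM in control and 1.02 ± 0.11 in MCT (SD, n = 4) and was not past the threshold (adjusted p 0.164).

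Rspo1 was the main R-spondin in these lungs, with 7.45 ± 2.45 FPKM in control and 9.49 ± 1.57 in MCT (SD, n = 4). Control 4, at 3.79 FPKM, was far below the other 7 libraries, which were at 8.01 to 10.97. The log2 fold change was 0.34 (edgeR adjusted p 0.417) and 0.12 without control 4. Rspo2 and Rspo3 stayed at or under 0.27 FPKM in every library. Rspo4 did not pass the filter, with 0, 0, 0.13 and 0 FPKM in controls 1 to 4 and 0.25, 0.36, 0.51 and 0.47 in MCT 1 to 4. Its estimated counts of 4 to 23 units where above 0, at about 3.67 units a read pair, stand for few read pairs. Without control 3 it passed the filter, but only through the MCT libraries. The controls left were all at 0, so its call as higher in that fit carries no weight.

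The feedback genes were lower. Axin2, a scaffold protein of the beta-catenin destruction complex, has its upstream sequence given above. It was at 22.7, 22.4, 19.97 and 30.9 FPKM in controls 1 to 4. In MCT 1 to 4 it was at 13.8, 16.9, 15.7 and 17.6. The lowest control lies above the highest MCT library, and control 4 is the highest of all. In edgeR the log2 fold change was -0.59 (SE 0.13, edgeR adjusted p 0.0138), and it kept its call without each library in turn (adjusted p 0.0126 to 0.0414). Rnf43, the ubiquitin ligase that removes Frizzled from the membrane, was at 3.78, 3.82, 4.08 and 3.90 FPKM in the controls and 3.18, 2.88, 2.85 and 2.62 in MCT. The change was small, -0.44 (SE 0.13, adjusted p 0.0452). The call of Rnf43 was lost without any 1 library except MCT 1 (adjusted p 0.0704 to 0.112).

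The secreted inhibitors split in direction. Wif1, a protein that binds Wnt ligands and the most abundant inhibitor here, supplied 70.3% of the inhibitors' summed FPKM in control and 50.9% in MCT. It was at 96.8, 71.3, 73.7 and 63.5 FPKM in controls 1 to 4 and at 35.8, 44.9, 48.3 and 63.1 in MCT 1 to 4. The groups are only just apart, with MCT 4 at 63.14 and control 4 at 63.51 FPKM, and the extremes are control 1 and MCT 1. The fitted log2 fold change was -0.67 (SE 0.18, edgeR adjusted p 0.0286). With control 1 and MCT 1 both left out it was -0.43 (adjusted p 0.0718). The call was also lost without MCT 2, MCT 3 or control 1, 2 or 3 (0.0560 to 0.0815), and with the replicate number as a block (0.0935). Wif1 (ENSRNOG00000004476) lies on chromosome 7 from 63094911 to 63165159.

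The inhibitors that rose were of low abundance. Sfrp1, a secreted Frizzled-like domain protein, was at 1.93, 1.65, 2.45 and 1.17 FPKM in controls 1 to 4 and at 3.38, 5.64, 3.69 and 3.66 in MCT 1 to 4. All MCT libraries lay above all controls, with MCT 2 the highest. The log2 fold change was 1.18 (SE 0.25, edgeR adjusted p 0.0113), or 2.27-fold higher in mean FPKM. Dkk2, which binds Lrp co-receptors, was at 0.62, 0.42, 0.32 and 0.74 FPKM in the controls and at 1.13, 2.30, 1.33 and 1.13 in MCT. Its groups did not overlap, and MCT 2 was again the highest. For Dkk2 the log2 fold change was 1.48 (SE 0.34, adjusted p 0.0155).

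Frzb, also called Sfrp3, was uneven among MCT lungs, at 3.02, 7.51, 7.66 and 1.62 FPKM in MCT 1 to 4 against 2.22, 1.4, 1.31 and 1.44 in controls 1 to 4. MCT 4 lay within the control range, so the groups overlap. In edgeR the log2 fold change was 1.63 (SE 0.47, edgeR adjusted p 0.0394). The call was lost without MCT 2, MCT 3 or control 2, 3 or 4 (adjusted p 0.0951 to 0.103), with the replicate number as a block (0.114), and by limma on log2(FPKM + 0.5). In MCT 4 the fibroblast markers summed to 261 FPKM, inside the 203 to 264 of the other MCT libraries. Their relation to the level of Frzb was not tested.

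Dkk3, a Dkk family member that does not act like the others on Lrp proteins, was at 17.9, 17.3, 13.2 and 18.9 FPKM in the controls and at 16.3, 25.3, 26.9 and 25.8 in MCT. MCT 1 lay among the controls, while the other MCT libraries lay above all of them. The log2 fold change of 0.48 was not past the threshold (edgeR adjusted p 0.0626), and without MCT 1 it was 0.62 (adjusted p 0.00667). By DESeq2 the adjusted p with all libraries was 0.0291. Dkk4 had 5.50 ± 0.52 FPKM in control and 5.01 ± 1.03 in MCT (SD, n = 4), with an interval of -0.54 to 0.26 on the log2 scale. Sfrp2 spread widely in control, at 8.79, 3.54, 1.38 and 7.29 FPKM, against 5.10 to 7.23 in MCT, and its sign turned without control 3. Sfrp4 (0.11 to 0.22 FPKM) and Sfrp5 (0 to 0.65 FPKM) were close to the limit of detection. Without Wif1, the other 9 inhibitors summed to 32.1 ± 5.77 FPKM in control and 45.7 ± 7.35 in MCT, and control 1 (38.02) lay above MCT 1 (37.22). Dkk3, which was not called, had the largest difference in mean FPKM among these 9. With Wif1, the sums were 108 ± 17.6 and 93.8 ± 14.2 FPKM (SD, n = 4). Both sums overlapped between the groups.

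**Figure D3:**
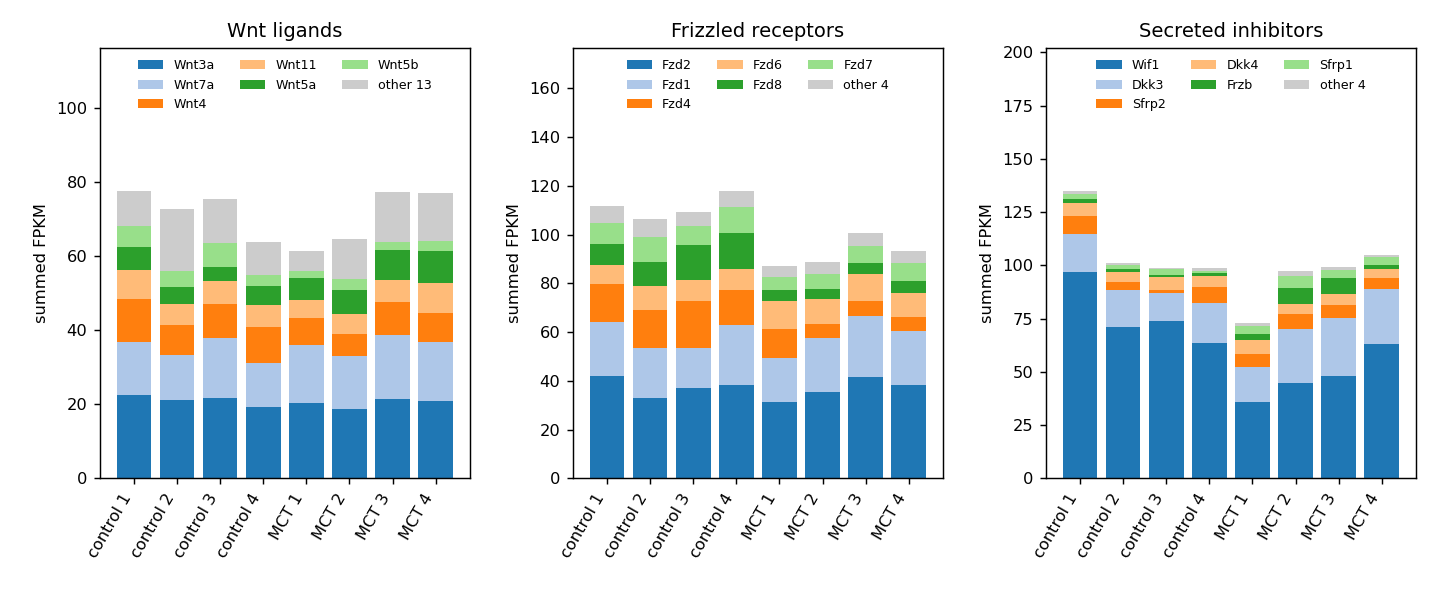
Summed FPKM (y axis) in each of the 8 libraries (x axis) of the 19 Wnt ligands, the 10 Frizzled receptors and the 10 secreted inhibitors, stacked by gene with the 6 most abundant named. The Frizzled sums of MCT lie below those of control, at 87.0 to 101 against 106 to 118 FPKM, while the ligand and inhibitor sums overlap.

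The total of Wnt ligand transcripts differed little between the groups. The 19 ligand genes summed to 63.9 to 77.5 FPKM in control and 61.4 to 77.3 in MCT. Wnt3a, a canonical ligand, had the highest level, with 21.1 ± 1.397 FPKM in control and 20.4 ± 1.21 in MCT (SD, n = 4), and its log2 fold change of -0.06 had a 95% interval of -0.24 to 0.13. Wnt7a, a ligand linked to lung and vessel development, came next with 13.6 ± 1.92 and 15.8 ± 1.25 FPKM (edgeR adjusted p 0.219). Wnt4 had 9.72 ± 1.45 and 7.47 ± 1.18 FPKM, a log2 fold change of -0.38 with an edgeR adjusted p of 0.0717 (0.0318 by DESeq2). Wnt11 had 6.39 ± 0.98 and 6.09 ± 1.37 FPKM, and its sign turned without control 1 or MCT 1. The 2 ligands that were called are the paralogs Wnt5a and Wnt5b, both known mostly for beta-catenin-independent signalling.

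Wnt5b was at 5.70, 4.28, 6.28 and 3.02 FPKM in controls 1 to 4 and at 1.86, 2.84, 2.31 and 2.48 in MCT 1 to 4. The highest MCT library lay just under control 4. The fitted log2 fold change was -1.03 (SE 0.24, edgeR adjusted p 0.0173), and with control 1 and MCT 1 both left out it was -0.85 (adjusted p 0.0663). Wnt5a moved the other way, at 6.22, 4.58, 3.84 and 5.21 FPKM in the controls and at 5.84, 6.37, 8.05 and 8.87 in MCT. Control 1 lay within the MCT range. Its log2 fold change of 0.55 (SE 0.17, adjusted p 0.0487) was near the threshold. The call was lost without MCT 2, 3 or 4 or control 2, 3 or 4 (0.0682 to 0.132), with library totals or DESeq2 size factors as the scaling, with no filter, with the replicate number as a block (0.0889), and by limma.

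Within a library, the ratio of Wnt5b to Wnt5a FPKM was 0.92, 0.93, 1.64 and 0.58 in controls 1 to 4 and 0.32, 0.45, 0.29 and 0.28 in MCT 1 to 4. Wnt5a thus exceeded Wnt5b in all 4 MCT libraries and in every control except that with a ratio of 1.64. In 2 controls the paralogs were at about equal levels. The ranges of the ratio do not overlap between the groups. This ratio was not planned and joins the called ligands, which moved in opposite directions. Its separation is thus a description and no further evidence. Wnt5a lies on chromosome 16 from 4469468 to 4489860 and Wnt5b on chromosome 4 from 151500957 to 151516894.

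Wnt2, a mesenchymal ligand needed for early lung development, was at 2.45, 2.55, 2.73 and 3.04 FPKM in controls 1 to 4. In MCT 1 to 4 it was at 1.91, 5.39, 4.64 and 4.08. MCT 2, 3 and 4 lay above all controls and MCT 1 below them, and Wnt2 was not past the threshold (edgeR adjusted p 0.210). Without MCT 1 it was called higher. Wnt2b spread widely among controls, from 2.06 to 8.27 FPKM, and overlapped with MCT (1.07 to 4). The gene St7l overlaps Wnt2b on the opposite strand, with a mean of 5.53 FPKM, and whether the counting used strand is not stated, so reads of the pair may be mixed. Wnt9a (1.20 to 5.04 FPKM), which lies close to Wnt3a on chromosome 10, and Wnt7b (0.39 to 1.36 FPKM) also overlapped. Wnt9b was at 0 to 0.14 FPKM in control and 0.17 to 0.42 in MCT, apart between the groups but not called (adjusted p 0.190). Wnt6 stayed at or under 0.4 FPKM.

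Beside the 12 most abundant members that were not called, the remaining 13 tested members had mean levels of 0.0875 to 3.35 FPKM and adjusted p-values of 0.0842 to 0.997. The 9 members that did not pass the filter were Wnt1, Wnt3, Wnt8a, Wnt8b, Wnt10a, Wnt10b, Wnt16, Dkk1 and Rspo4. Of these, Wnt1, Wnt8b, Wnt16 and Dkk1 had a count of 0 in all 8 libraries. A count of 0 allows up to 3 read pairs, which is 0.277 read pairs per M in the shallowest library and 0.165 in the deepest, for counting error only. The other 5 were at or under 0.51 FPKM in every library.

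The rest of the pathway was described with a list of 61 other genes, of which 60 were in the table and 56 were tested. Of the 56, 19 were lower (33.9%) and 3 higher (5.36%), against 9.45% and 11% of all genes tested. The median log2 fold change of the 56 was -0.33. The alternative Wnt receptors Ror1, Ror2, Ryk and Ptk7 were not called, with log2 fold changes of 0.30, 0.40, -0.04 and 0.02. By role, 9 of 21 cytoplasmic genes, 5 of 13 nuclear genes, 2 of 6 planar polarity genes and 3 of 13 receptor partners were lower, and none of 3 secretion genes (Wls, Porcn and Notum) was called. The falls ran from -0.21 to -1.53. The number lower was 8 without MCT 2, 9 without MCT 3, 11 without control 2 or 4 and 12 without MCT 4, control 1 or control 3. Calls also fell among all genes, from 9.45% lower to 5.75% without MCT 2 and 6.47% without MCT 3. Without control 2 and control 4 the share of all genes lower was 6.36% and 7.11%. Without MCT 4, control 1 and control 3 it was 7.38%, 8.35% and 6.81%. The beta-catenin gene Ctnnb1 had 160 ± 8.63 FPKM in control and 146 ± 19.3 in MCT (SD, n = 4, edgeR adjusted p 0.380).

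Tle1, a Groucho corepressor that binds TCF factors, fell most among these genes. It was at 22.2, 22.6, 18.5 and 20.9 FPKM in controls 1 to 4 and at 8.56, 6.90, 6.65 and 7.07 in MCT 1 to 4. The log2 fold change was -1.53 (SE 0.11, edgeR adjusted p 0.000192). The other members of the family, Tle2, Tle3, Tle4 and Tle5, had log2 fold changes of -0.26, 0.22, -0.37 and 0.05 and were not past the threshold. Bcl9l, a beta-catenin cofactor, was at 28.1 to 31.8 FPKM in control and 19.4 to 21.0 in MCT (-0.58, SE 0.08, adjusted p 0.00141). Its relative Bcl9 fell by 0.78 on the log2 scale (adjusted p 0.00440).

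In the planar polarity and Dishevelled-linked branch, Prickle1 was at 8.68 to 13.03 FPKM in control and 5.58 to 7.08 in MCT (log2 fold change -0.77, SE 0.12, edgeR adjusted p 0.00315). Daam1, a formin that binds Dishevelled, was at 19.2 to 21.2 FPKM in control and 15.0 to 15.9 in MCT (-0.38, SE 0.06, adjusted p 0.00336). Neither gene overlapped between the groups. Dvl1 and Dvl2, which relay Frizzled signals, fell by 0.33 and 0.39 on the log2 scale, and Dvl3 was not past the threshold (adjusted p 0.254). Tspan12, a partner of Fzd4, fell by 0.46 on the log2 scale (edgeR adjusted p 0.037). Adgra2 and Reck, which assist Wnt7 signalling in vessels, fell by 0.47 and 0.46 (edgeR adjusted p 0.0444 and 0.0398). The values of Reck overlapped between the groups. The calls of Tspan12, Adgra2 and Reck were near the threshold.

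The 3 genes of this list that rose encode modulators of the pathway. Apcdd1, a membrane inhibitor of Wnt signalling, was at 11.3 to 13.8 FPKM in control and 14.2 to 23.7 in MCT (log2 fold change 0.69, SE 0.14, edgeR adjusted p 0.00864). Cthrc1, a secreted matrix protein that favours planar polarity signalling, was at 1.69 to 2.39 FPKM in control and 2.73 to 4.65 in MCT (0.84, SE 0.25, adjusted p 0.0398). Ctnnbip1, which blocks the binding of beta-catenin to TCF factors, was at 4.82 to 6.23 FPKM in control and 7.14 to 8.27 in MCT (0.46, SE 0.13, adjusted p 0.0337). The calls of Cthrc1 and Ctnnbip1 were lost without several single libraries (adjusted p up to 0.115 and 0.0948), among them MCT 2, MCT 3, control 3 and control 4.

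**Figure D4:**
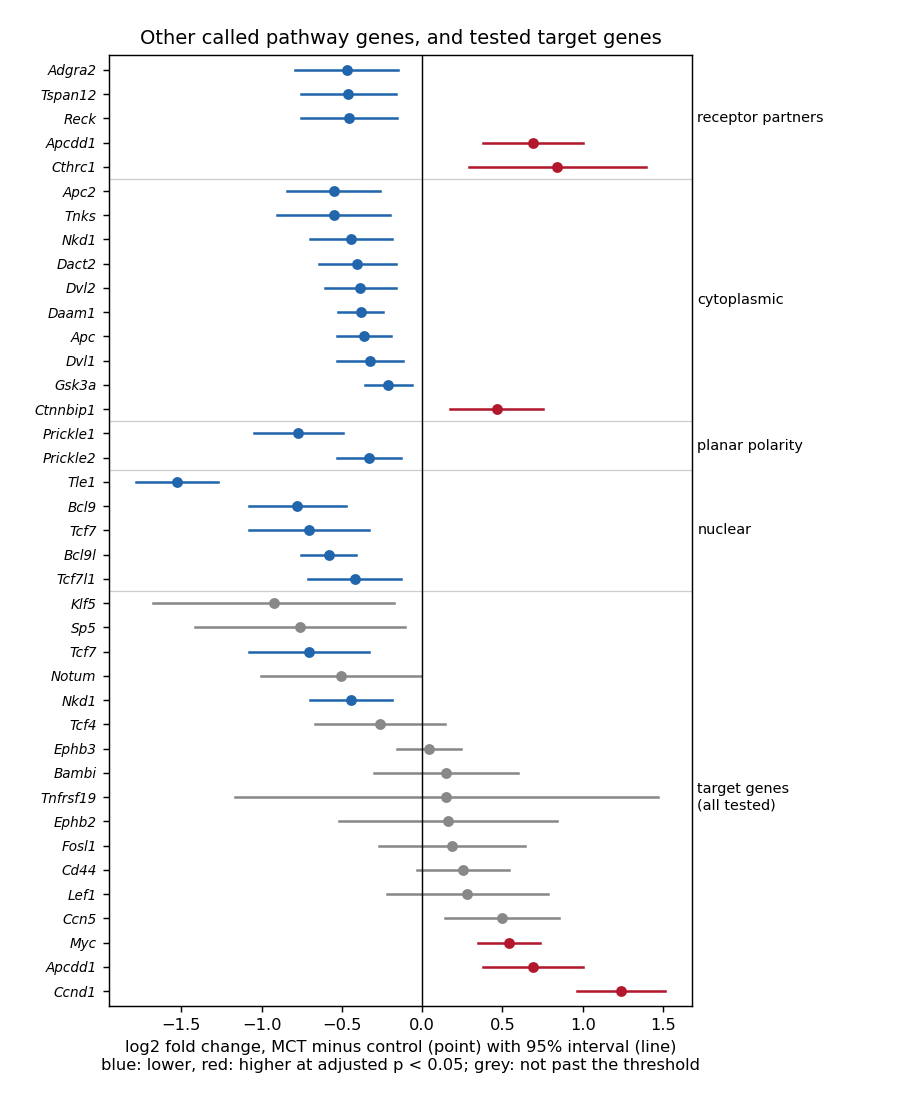
Log2 fold change (x axis, MCT minus control, edgeR) with a 95% interval per gene, not adjusted for the number of genes, of the 22 called genes among the other pathway genes by role, and of all 17 tested target genes. Blue is lower, red higher and grey not past an adjusted p of 0.05, and 19 of the 22 pathway genes lie left of 0 while the target genes lie on both sides.

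Genes reported as canonical Wnt targets in other cells did not move in one direction. Of 20 listed, 19 were in the table, 17 were tested, 3 rose and 2 fell (17.6% and 11.8% of those tested, against 11% and 9.45% of all genes). The list shares 5 genes with the pathway list. It leaves out Axin2 and Rnf43, also transcribed in response to canonical signalling, which were counted as members and were lower. Ccnd1, the cyclin D1 gene, was at 64.9, 45.6, 54.4 and 56.5 FPKM in controls 1 to 4 and at 118, 113, 145 and 146 in MCT 1 to 4, with a log2 fold change of 1.24 (SE 0.12, edgeR adjusted p 0.000474). Myc was at 11.5 to 13.2 FPKM in control and 16.3 to 18.7 in MCT (0.54, SE 0.09, adjusted p 0.00302). Both genes also respond to growth signals of many other kinds. The 3 dividing-cell markers all rose, from sums of 2.86 to 5.77 FPKM in control to 18.9 to 25.4 in MCT. A link between these markers and the rise of Ccnd1 or Myc was not tested. Apcdd1 was the third that rose.

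Tcf7, a TCF factor that also marks T cells, was at 12.4 to 18.8 FPKM in control and 7.65 to 12.03 in MCT (log2 fold change -0.71, SE 0.17, edgeR adjusted p 0.0165). Markers of T and NK cells summed to 38.7 to 57.2 FPKM in control and 18.1 to 24.3 in MCT, with 3 of 4 lower, and their part in the fall of Tcf7 was not tested. Nkd1, a Dishevelled-binding feedback inhibitor, was at 73.8 to 91.1 FPKM in control and 49.98 to 71.97 in MCT (-0.44, SE 0.11, adjusted p 0.0252). Its call was lost without MCT 2, MCT 3, control 1 or control 4 (0.0539 to 0.0760). Lef1, Sp5, Notum and Klf5, other listed targets, were not past the threshold, with log2 fold changes of 0.28, -0.76, -0.51 and -0.92.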

How the data were processed

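Rat lung RNA was sequenced in 4 MCT and 4 control libraries. The submitters' processing notes name cutadapt 1.9, HISAT2 2.0.4, StringTie 1.3.4d, edgeR and the build Rnor_6.0, with no order or settings. The table deposited by the authors holds FPKM values and estimated counts per gene, per the file headers. These estimated counts, as deposited, were whole (rounding changed 0 values), spaced at about 3.67 units a read pair by a periodogram of values up to 60.

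Genes passing filterByExpr (minimum count 10) were scaled by TMM and tested with edgeR 4.0.16 (quasi-likelihood, robust, R 4.3.3), two-sided, with Benjamini-Hochberg adjustment over all 16715 genes and a threshold of 0.05. Alternatives were other scalings and filters, DESeq2 1.42.0, limma 3.58.1 on log2(FPKM + 0.1, 0.5 or 1), the replicate number as a block, and libraries left out. Counts divided by 3.67 were added after seeing the data. Members and lists were chosen with earlier results of these data known. Named were all called members, the 12 most abundant uncalled ones, and called list genes of smallest p (4 a direction in the pathway list, 3 in the target list). Others are examples chosen after their values were seen. No libraries of a group were duplicates (chi-square per gene at least 14.3).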

Additional observations from a re-analysis of the deposited data

Results flagged for a closer look

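For each of the 39 named genes and each group, the gap between the most distant library and its nearest neighbour was divided by the spread of the group's 4 libraries on the log2 CPM scale. That share passed Dixon's 95% limit in 8 of 78 sets, where chance alone gives about 3.9 (1 in 20). MCT 1 was the distant library for Fzd4, with a gap share of 0.9222 (12.2 FPKM, and 5.75 to 6.21 in MCT 2 to 4), and for Dkk3, with 0.906 (16.3 FPKM, and 25.3 to 26.9 in MCT 2 to 4). Dkk3 also had a distant control, control 3, with a share of 0.874 (13.2 FPKM, and 17.3 to 18.9 elsewhere in the group). Control 4 was distant for Rspo1, with 0.9167 (3.79 FPKM, and 8.35 to 8.84 elsewhere), and for Wnt3a, with 0.8294 (19.2 FPKM, and 21.1 to 22.4 elsewhere). MCT 2 was distant for Sfrp1, with 0.8808 (5.64 FPKM, and 3.38 to 3.69 elsewhere), and for the beta-catenin inhibitor Ctnnbip1, with 0.8963 (8.27 FPKM, and 7.14 to 7.51 elsewhere). Control 1 was distant for Frzb, with 0.8409 (2.22 FPKM, and 1.31 to 1.44 elsewhere).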

How the results depend on the processing

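Of the 16 called members, Axin2, Dkk2, Fzd8, Lrp5, Lrp6 and Sfrp1 kept their call and direction under all 20 alternatives tried. The other 10 lost it under at least 1, and none changed direction. The number of higher members fell from 4 to 2 with limma at pseudocounts of 0.1, 0.5 and 1, with no filter and with the replicate block. The share higher was then 4.88% of members with limma, 4.35% with no filter and 4.88% with the block. Of all genes it was 11.5% to 11.6%, 7.25% and 8.59%. The number of lower members was 12 with limma and 9 with the replicate block. Leaving out 1 library gave 2 to 6 higher and 5 to 11 lower members, 1 to 4 higher and 8 to 21 lower pathway genes, 3 to 4 higher and 1 to 3 lower targets, and 1191 to 1946 higher and 975 to 1730 lower genes in all. The number of lower targets, 2, was 4 with DESeq2 and 1 with the replicate block. The labels do not say whether same-numbered libraries share more than a number. Correlations of their deviations from the group mean were 0.11 (control 1 with MCT 1), 0.02, -0.02 and -0.08. So few values cannot settle whether the libraries are paired. Under the block Fzd5, Frzb, Rnf43, Wif1 and Wnt5a lost their call. Among the named genes, signs turned for 4 that were not called. With 1 library left out, log2 fold changes ran from -0.089 to 0.024 for Fzd2 (0.016 without control 1, 0.024 without MCT 1), from -0.045 (without control 3) to 0.132 for Fzd1 (-0.01 without MCT 3), from -0.241 to 0.036 (without control 1) for Wnt11 and from -0.046 (without control 3) to 0.634 for Sfrp2. Without control 1 and MCT 1 both, Fzd2 was 0.075 and Wnt11 0.118. These fits also had fewer libraries, and the cause of the turned signs was not tested. Other scalings moved the median of all genes by -0.01 to 0.01 on the log2 scale. Depth limits Lgr5, Fzd9, Rspo4 and other genes under 1 FPKM.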
